A study of Mus musculus with 17 samples.

Results

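Extracranial rhabdoid tumors arising in mice were compared with healthy mouse brain by sequencing of polyadenylated RNA. The 4 extracranial tumors and the 3 healthy brains were taken by their sample titles alone, whatever their values, and are 7 of the 17 libraries of the series. By the labels all mice were of the strain C57BL/6J, the extracranial tumors had the genotype SMARCB1 -/- and the brains were wild type (WT), with no treatment named for either group. The other 10 libraries were SMARCB1 -/- tumors too: 4 tumors of the central nervous system (CNS) of the Myc subtype, 3 of the SHH subtype and 3 syngeneic grafts of tumor grown in the flank. The labels give neither the organ in which an extracranial tumor arose, nor the allele, promoter or Cre by which Smarcb1 was lost, nor age or sex, nor whether any libraries share an animal. Each tumor is a whole-tissue sample, so its RNA includes that of host cells, and brain is a different tissue from whatever the tumors grew in. Differences of tissue and of tumor state therefore cannot be told apart in this comparison.

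Rhabdoid tumors are cancers of early childhood that arise in the brain, the kidney and soft tissue and share the loss of SMARCB1. SMARCB1 (also called SNF5 or BAF47) is a core subunit of SWI/SNF, a complex that uses ATP to move nucleosomes and so opens enhancers and promoters. Its best known antagonist is Polycomb repressive complex 2, which methylates histone H3 and keeps developmental genes silent. Human rhabdoid tumors of the CNS have been sorted by expression into subtypes, of which the MYC subtype shares with extracranial tumors high expression of MYC and of HOX genes.

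The extracranial tumors held 22491998 to 52956537 counts per library and the brains 103095016 to 130835711. Levels are CPM (counts scaled to a common library size) and are listed in the order of extracranial tumors 1, 2, 3 and 4 and of brains 1, 2 and 3. Some libraries held transcripts of a further tissue. The pituitary hormone genes showed this for brain 1, where growth hormone (Gh) was at 1215 CPM, against 0.0485 and 0.135 CPM in brains 2 and 3. Brain 1 also stood above the other brains for muscle actin (Acta1, 138, 2.91 and 3.1 CPM) and for the cartilage collagen Col2a1 (551, 31.3 and 24.8 CPM). Among the tumors Acta1 was at 46.8, 35.3, 0.0298 and 1.22 CPM. All 3 brains held high levels of Dcx, a gene of young migrating neurons. They also held the fetal gene Lin28b, given below, and the labels do not give their age. Most results below that rest on brain 1 or on tumors 1 and 2 are given without those libraries too. In bulk samples fewer cells of a type and less RNA per cell cannot be told apart, and this holds for each cell-type list described here.

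Smarcb1 itself (chromosome 10, 75896769 to 75921617, minus strand, GRCm38) checked the labels. It measured 23, 11.3, 7.25 and 19.8 CPM in tumors, against 132, 121 and 119 CPM in brains. Its log2 fold change (log2FC, tumors over brains, ± standard error) was -3.01 ± 0.64 (adjusted p = 0.00148). The groups did not overlap, and some reads of the gene remained in each tumor. The labels do not say which part of the gene was removed, and host cells of the tumor carry it, so the part of each in these reads was not tested.

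Among the other genes of the SWI/SNF complex, the subunits that neurons use in place of the general ones were lower in the tumors, and Actl6b was near 0. Actl6b, the neuronal actin-related subunit, was at 0, 0.0973, 0.0298 and 0 CPM in tumors, against 99.7, 147 and 158 CPM in brains (log2FC -11.63 ± 0.95, adjusted p = 1.85e-06). Its general counterpart Actl6a was at 52.3, 44.1, 56.7 and 55.8 CPM in tumors, against 43.3, 29.3 and 26.2 CPM in brains. Ss18l1, the neuronal form of the Ss18 subunit, fell to 7.22, 15.1, 5.64 and 11.5 CPM in tumors, against 124, 147 and 148 CPM in brains (log2FC -3.82 ± 0.34, adjusted p = 2.69e-06). Ss18 itself rose to 92.9, 121, 155 and 133 CPM in tumors, against 34.8, 43.5 and 30.8 CPM in brains (log2FC 1.78 ± 0.22, adjusted p = 2.5e-05). In both pairs the neuronal member fell, with no overlap between the groups, and Ss18 rose under every alternative tried. The call of Actl6a (adjusted p = 0.0482) was lost in most settings, for example without brain 2 (adjusted p = 0.145).

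Across the complex, 4 of 28 subunit genes rose and 14 fell. Of all 21494 genes tested, 52.2% were called at an adjusted p under 0.05, 26.1% as higher and 26.1% as lower in tumors, and a share near these values is no result about a list. The median log2FC of the subunits was -0.64, against 0.05 over all genes tested. Smarcc2, a scaffold subunit, fell to 189, 179.5, 179 and 191 CPM in tumors, against 500.3, 497 and 502 CPM in brains (log2FC -1.44 ± 0.15, adjusted p = 7.32e-06). Brd9, which marks the noncanonical form of the complex, fell as well (34.2, 30.4, 27.4 and 39 CPM in tumors, against 97.3, 112 and 111 CPM in brains; log2FC -1.71 ± 0.16, adjusted p = 3.96e-06). Smarcd2, a subunit known for its role in granulocyte formation, rose (84.7, 61.5, 103 and 76 CPM in tumors, against 20.8, 16.8 and 14.8 CPM in brains; log2FC 2.22 ± 0.19, adjusted p = 2.24e-06). The ATPase Smarca4 (167, 225, 257 and 242 CPM in tumors, against 209, 382 and 342 CPM in brains; adjusted p = 0.11) and the subunit Arid1a (220.3, 300.5, 346 and 239.8 CPM in tumors, against 271, 321 and 289 CPM in brains; adjusted p = 0.844) did not pass the test. The rise of Bcl7b (log2FC 0.74 ± 0.28) was lost in most settings, among them those without tumor 1 or 4 and those without brain 2 or 3, each of which left 2 raised subunits.

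Of the Polycomb repressive complex 2, 3 of 11 genes rose, a share near that of all genes tested, and 1 fell. The counts are therefore no result about the complex. Eed, which reads the mark the complex writes, was at 48, 49.2, 45 and 48.7 CPM in tumors, against 27.1, 26.2 and 24.4 CPM in brains (log2FC 0.88 ± 0.21, adjusted p = 0.00332), and the accessory subunit Mtf2 fell (log2FC -1.37 ± 0.25, adjusted p = 0.00052). The methyltransferase Ezh2 measured 31.6, 42.2, 56.4 and 44.4 CPM in tumors, against 35.9, 91.1 and 58.2 CPM in brains, with overlapping groups (adjusted p = 0.402). The rises of Aebp2 (log2FC 0.83 ± 0.29, adjusted p = 0.0279) and Rbbp7 (log2FC 1.14 ± 0.35, adjusted p = 0.0148) were both lost without brain 2 and without brain 3, which left Eed as the 1 raised gene.

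In the whole comparison 5610 genes were called higher and 5620 lower, and 2974 and 3733 of these differed more than 4-fold. All 4 tumors were above all 3 brains for 24.8% of the genes tested and below them for 29.6%, or 54.4% in all. Among the largest decreases were brain genes with no reads in any tumor. Ttr, the thyroid hormone carrier made by the choroid plexus, had 0 counts in the tumors and 709, 348 and 0.939 CPM in the brains, and was lower by at least 16505-fold over a floor of 3 counts. That mean rested on brains 1 and 2, and limma voom did not call the gene (adjusted p = 0.235). Neurod6, a transcription factor of excitatory neurons, had 0 counts in the tumors and 47.5, 195 and 200.3 CPM in the brains (at least 6900-fold lower). The noncoding RNA Sox1ot, which overlaps the neural gene Sox1, had 0 counts in tumors and 94, 67.1 and 42.9 CPM in brains (at least 3182-fold lower). Gjd2, the neuronal gap junction protein connexin 36, was again at 0 counts in tumors, against 18.1, 41 and 46.8 CPM in brains (at least 1650-fold lower).

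Among the largest increases several genes were carried by a single tumor. Prl2c3, of the prolactin gene family, had 311, 0.136, 0.0298 and 0.034 CPM in tumors and 0 counts in brains (at least 9364-fold higher as a group mean), so that tumor 1 alone carried it, and the call was lost without any 1 of the brains (adjusted p = 0.0551 to 0.0581). Prl2c3 did not pass without brain 1 and tumors 1 and 2 either (adjusted p = 0.303). Its near-identical copies make the count uncertain, as they do for Ang2, an angiogenin paralog with 243, 9.13, 0.298 and 16 CPM in tumors and 0 counts in brains. More evenly raised was the homeobox gene Hoxc8, described below. S100a5, a calcium-binding protein, was at 28.4, 22.4, 0.239 and 76.8 CPM in tumors, against 0, 0.0194 and 0 CPM in brains; the 2 counts in the brains give a ratio of 5772 with a 95% interval of 1598 to 47658, and tumor 3 was the low one. Cxcl9, a chemokine induced by interferon gamma, was at 15.9, 2.08, 377 and 0.102 CPM in tumors, against 0.00794, 0.0291 and 0.0239 CPM in brains (log2FC 12.14 ± 2.56, adjusted p = 0.0014) and was highest in tumor 3.

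**Figure D1:**
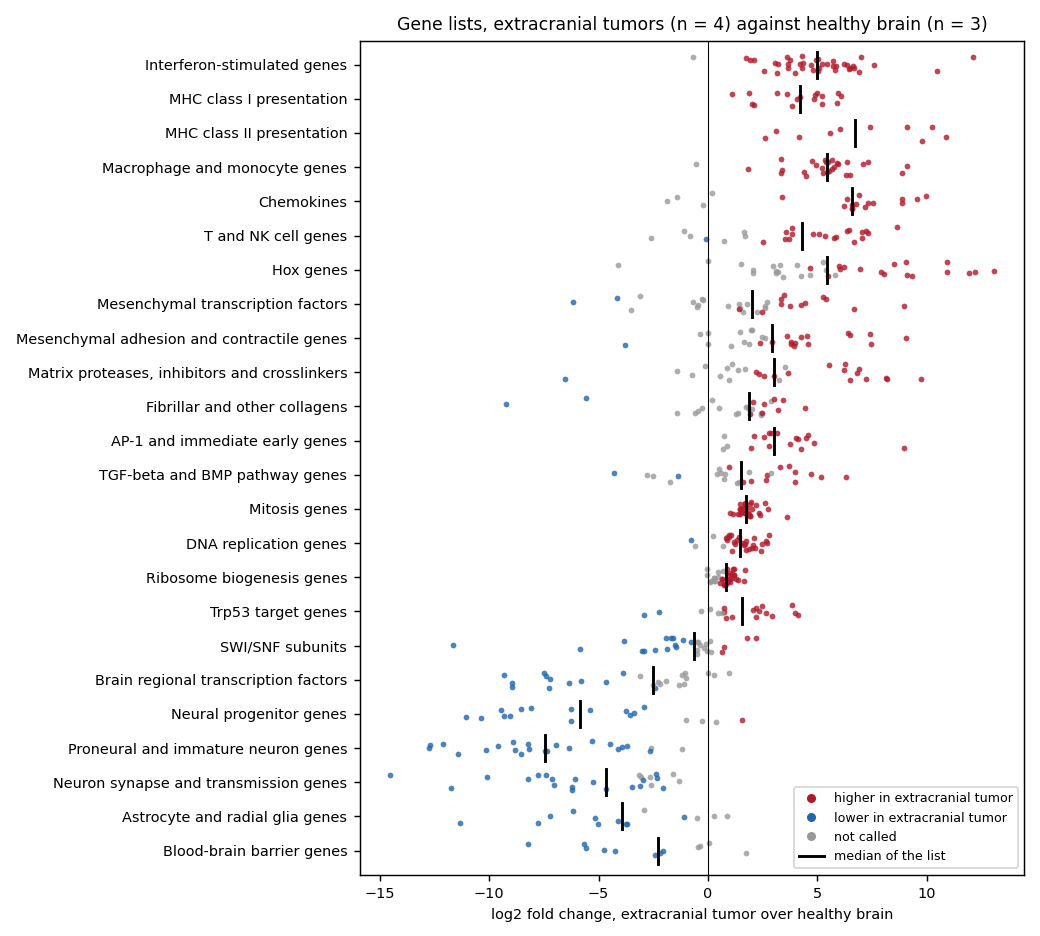
Log2 fold change of tested members of 24 gene lists in extracranial tumors over healthy brain (horizontal axis, log2 scale). Points are genes, colored by call, and the black bar is the median of the points drawn. Genes at 0 counts in a group are drawn at their bound over 3 counts. Those at the floor in both groups are left out. Neural lists lie left of 0, and Hox, interferon, antigen presentation and macrophage lists lie right of it.

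Genes of neurons were lower in the tumors with few exceptions. Of 23 proneural and immature neuron genes 21 fell and 0 rose, with a median log2FC of -7.43, and summed over the list the level was 42.5, 211, 107 and 528 CPM in tumors, against 5835, 7575 and 7268 CPM in brains. Dcx, the microtubule-binding protein of migrating neurons, was at 0, 0.428, 0.0895 and 0.17 CPM in tumors, against 972, 1607 and 1367 CPM in brains (log2FC -12.72 ± 1.19, adjusted p = 4.22e-06). The neuronal RNA-binding protein Elavl3 was at 0, 0.0973, 0.328 and 0.102 CPM in tumors, against 595, 612 and 639 CPM in brains (log2FC -12.09 ± 1.15, adjusted p = 4.62e-06). Both genes sat near 0 in each tumor. Sox11, a factor of immature neurons, was low but measurable, with 0.341, 17.5, 1.28 and 2.38 CPM in tumors, against 569, 786 and 617 CPM in brains (log2FC -6.92 ± 1.1, adjusted p = 0.000176). Nhlh2, a neuronal bHLH factor, had 0 counts in the tumors and 21, 33.6 and 17.7 CPM in the brains, a decrease of at least 1128-fold.

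Of the 25 genes of synapse and transmission 19 fell and 0 rose (median log2FC -4.65). The AMPA receptor subunit Gria2 was at 0.0488, 1.32, 0.746 and 0.272 CPM in tumors, against 512, 762 and 775 CPM in brains (log2FC -10.08 ± 1.25, adjusted p = 2.75e-05). The NMDA receptor subunit Grin1 was at 1.32, 0.545, 0.418 and 0.17 CPM in tumors, against 104, 121 and 166 CPM in brains (log2FC -7.77 ± 0.89, adjusted p = 1.5e-05). Slc17a6, which loads glutamate into vesicles, had 1 count in all 4 tumors together and 197, 189 and 288 CPM in the brains, a ratio of 31524 with a 95% interval of 5658 to 1245140. Its counterpart for GABA, Slc32a1, had 2 counts in the tumors and 62.5, 60.2 and 59.8 CPM in the brains, a ratio of 4270 with an interval of 1182 to 35259. Other genes of the list stayed high in single tumors. Gad1, which makes GABA, was at 323, 4.16, 19.8 and 2.01 CPM in the tumors and 300.2, 230.2 and 257 CPM in the brains, with tumor 1 at the level of brain and the others far under it (adjusted p = 0.47, or 0.0494 without tumor 1). The neurofilament gene Nefl was at 2.54, 28.4, 0.239 and 409.7 CPM in the tumors and 294, 261 and 269 CPM in the brains, and here tumor 4 was the high one (adjusted p = 0.559). Snap25, a protein of vesicle fusion, was at 0.195, 96.5, 26.9 and 12.3 CPM in tumors, against 287, 247 and 324 CPM in brains (adjusted p = 0.0846), and it passed without tumor 2 (adjusted p = 0.0344).

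Neural progenitor genes fell as well. Of 18 neural progenitor genes 14 fell and 1 rose (median -5.82). Sox2, a factor of neural stem cells, was at 0.0976, 0.0973, 0 and 0.204 CPM in tumors, against 84, 72.4 and 55.2 CPM in brains (log2FC -9.47 ± 1.33, adjusted p = 7e-05). Sox1 was at 0.0488, 0, 0.0597 and 0.034 CPM in tumors, against 57.4, 42.9 and 29.2 CPM in brains (log2FC -10.35 ± 1.03, adjusted p = 6.05e-06). Rfx4, a ciliogenic factor of the neural tube, had 1 count in the tumors and 24.9, 17.8 and 18.5 CPM in the brains (ratio 2866, interval 514 to 113209). The riser was Hes1, a Notch-responsive repressor that many tissues use (20.5, 23.5, 10.02 and 15 CPM in tumors, against 5.49, 6.22 and 5.98 CPM in brains; log2FC 1.55 ± 0.45, adjusted p = 0.0103). Its neural relative Hes5 fell (0, 0.0195, 0.0298 and 0.068 CPM in tumors, against 6.38, 14.3 and 14.6 CPM in brains; log2FC -8.53 ± 0.84, adjusted p = 1.65e-05). Nes, the intermediate filament nestin, did not pass, with 105, 333, 37.6 and 41.8 CPM in tumors, against 85.8, 114 and 104 CPM in brains (adjusted p = 0.765). Without brain 1 and tumors 1 and 2 the rise of Hes1 did not pass (adjusted p = 0.176).

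Of 14 astrocyte and radial glia genes 10 fell and 0 rose (median -3.93), and 5 fell without brain 1 and tumors 1 and 2. The water channel of astrocyte endfeet, Aqp4, had 2 counts in the tumors and 44.9, 34.4 and 52.3 CPM in the brains (ratio 3080, interval 853 to 25432). Gfap, the astrocyte filament, was at 0.293, 0.234, 0.239 and 0.272 CPM in tumors, against 28.7, 9.41 and 18.1 CPM in brains (log2FC -6.18 ± 1.39, adjusted p = 0.00216). The brain proteoglycan Ncan was at 0.0488, 0.0195, 0.268 and 0 CPM in tumors, against 552, 589 and 667 CPM in brains (log2FC -12.78 ± 1.84, adjusted p = 8.38e-05). The glutamate transporter Slc1a3 was high in tumor 3 (0.732, 2.78, 161 and 1.02 CPM in tumors, against 419, 267 and 247 CPM in brains; adjusted p = 0.116), and without tumor 3 it was called lower (adjusted p = 0.000254). Of 15 oligodendrocyte genes 4 fell, a share near that of all genes tested. Among them were the lineage factors Olig1 (0 counts in tumors, 37.4, 48.7 and 60.9 CPM in brains, at least 2294-fold lower), Olig2 (0.0976, 0.37, 0 and 0 CPM in tumors, against 16.4, 21.2 and 20.2 CPM in brains; log2FC -7.23 ± 1.5, adjusted p = 0.00125) and Sox10 (0 counts in tumors, 9.77, 9.43 and 8.94 CPM in brains, at least 439-fold lower). The myelin gene Mbp, which other cell types transcribe too, was at 189, 8.89, 6.68 and 61.5 CPM in tumors, against 48.7, 36.5 and 35.8 CPM in brains (adjusted p = 0.669). Summed, the oligodendrocyte list was at 431, 415, 163 and 822 CPM in tumors, against 338, 333 and 338 CPM in brains. How far the age of the brains, which is not given, sets their level was not tested.

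The transcription factors that divide the brain into regions had 12 of 25 members lower and 0 higher (median -2.5). Otx2, of forebrain and midbrain, was at 0.0488, 0, 0.776 and 0.034 CPM in tumors, against 9.85, 31.4 and 60.3 CPM in brains (log2FC -7.27 ± 1.3, adjusted p = 0.000445). Barhl1, of cerebellum and hindbrain, was at 0.0976, 0.0389, 0.597 and 0.034 CPM in tumors, against 12.2, 29.3 and 56.7 CPM in brains (log2FC -7.39 ± 1.21, adjusted p = 0.000226). Factors of both front and hind regions were thus low in the tumors. Otx1 was high in tumor 3 alone (0.0488, 0.37, 62.1 and 0.272 CPM in tumors, against 9.74, 13.2 and 16.2 CPM in brains; adjusted p = 0.912), and without that tumor it was called lower (log2FC -5.74, adjusted p = 0.0103). En1, a midbrain and hindbrain factor that also patterns limbs and skin, was at 24.9, 2.28, 8.86 and 26.1 CPM in tumors, against 1.96, 9.49 and 12.3 CPM in brains (adjusted p = 0.384).

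Hox genes, which give cells their position along the trunk and limbs and are silent in the forebrain and midbrain, were the patterning genes that rose. Of 39 Hox genes in the files 36 passed the filter on low counts, and 17 of these were called higher and 0 lower. Their median log2FC was 5.34, or 5.44 with genes at 0 counts in a group set to their bound and the genes at the floor in both groups left out. Without tumor 1 the median was 2.97, with 14 genes higher and 1 lower, and without brain 1 and tumors 1 and 2 it was 2.88, with 12 of 37 higher. The rise was not spread evenly over the clusters. All 8 tested genes of the Hoxc cluster were called, as were 5 of 9 of Hoxb, 2 of 11 of Hoxa and 2 of 8 of Hoxd.

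The Hoxc cluster was high in each tumor, whereas the other clusters were high in tumor 1. Summed over the cluster, Hoxc was at 287, 43.4, 191 and 237 CPM in the tumors, against 0.572, 1.08 and 0.0159 CPM in the brains. Hoxa summed to 98.6, 0.701, 0.149 and 0.442 CPM in the tumors, against 1.52, 5.08 and 0.0318 CPM in the brains. Hoxb summed to 142, 6.29, 6.89 and 5.13 CPM in the tumors, against 3.87, 6.22 and 0.0636 CPM in the brains. Of the 36 tested Hox genes 31 were highest in tumor 1. Without tumor 1 the same 8 Hoxc genes and the same 2 Hoxd genes were called, while Hoxb had 4 calls and Hoxa had 0.

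The genes of Hoxc that rose most are active in the trunk and limbs. Hoxc8, which patterns the lower thorax, was at 76, 16.7, 53.8 and 120.5 CPM in tumors, against 0.00794, 0.00971 and 0 CPM in brains; the brains held 2 counts of it, which gives a ratio of 12050 with a 95% interval of 3336 to 99499. Hoxc6 was at 69.5, 14, 41.6 and 41.3 CPM in tumors, against 0.00794, 0.0194 and 0 CPM in brains (3 counts in the brains, ratio 5003, interval 1712 to 24259). Hoxc9 had 24.3, 1.15, 21.6 and 17.1 CPM in the tumors and 0 counts in the brains (at least 1929-fold higher), and tumor 2 was the low one. Hoxc10, of the lumbar level, was at 47, 0.428, 23.2 and 19.9 CPM in tumors, against 0.00794, 0 and 0 CPM in brains (1 count in the brains, ratio 8170, interval 1466 to 322711) and was lowest in tumor 2 as well. Hoxb4, of the neck and upper thorax, was at 11.3, 2.28, 2.21 and 3.47 CPM in tumors, against 0.0794, 0.223 and 0.0159 CPM in brains (log2FC 5.48 ± 1.32, adjusted p = 0.00348). In every one of these genes each tumor lay above each brain.

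**Figure D2:**
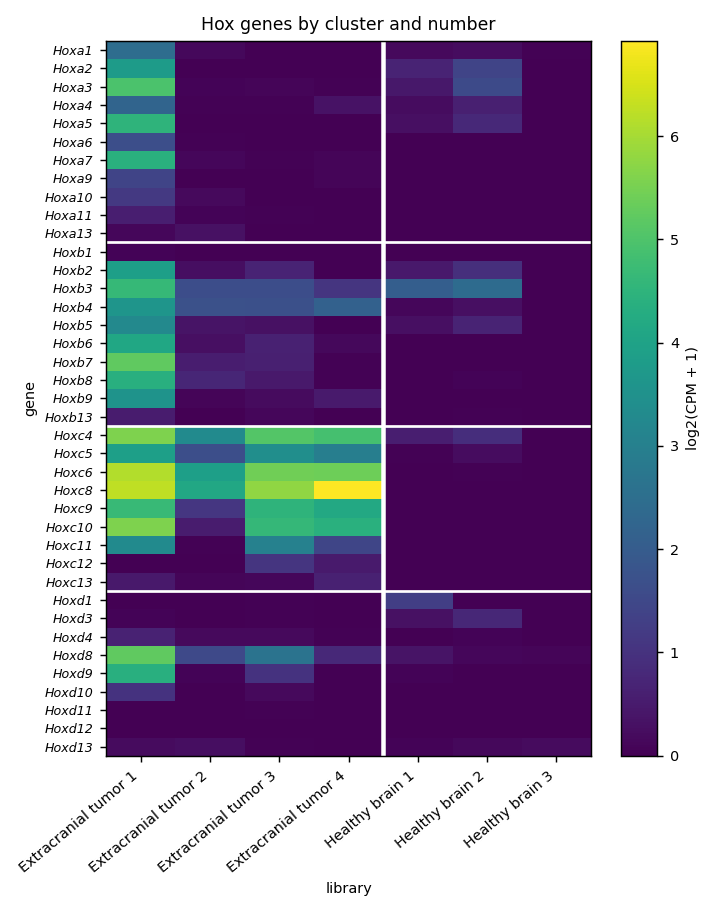
Level of 39 Hox genes in extracranial tumors 1 to 4 (left) and healthy brains 1 to 3 (right), as log2(CPM + 1), with the genes in rows ordered by cluster. The Hoxc cluster as a whole is above the brains in all 4 tumors, least so in tumor 2. The Hoxa, Hoxb and Hoxd genes are raised mainly in tumor 1.

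Mesenchymal transcription factors rose in part. Of 30 such factors 12 rose and 2 fell, with a median log2FC of 2.02. Prrx1, a homeobox gene of limb and face mesenchyme, was at 139, 1066, 349 and 1303 CPM in tumors, against 25.6, 13.6 and 11.8 CPM in brains (log2FC 5.39 ± 0.93, adjusted p = 0.000327). Twist1, a driver of epithelial-mesenchymal transition, was at 2.93, 87.5, 10.1 and 97.6 CPM in tumors, against 4.56, 1.32 and 0.978 CPM in brains (log2FC 4.44 ± 1.09, adjusted p = 0.00391), and in tumor 1 it lay within the range of the brains. Snai2 was at 2.78, 24, 98.1 and 3.02 CPM in tumors, against 2.83, 1.18 and 0.994 CPM in brains (log2FC 4.26 ± 1.14, adjusted p = 0.00655), with its highest level in tumor 3. Runx1, a factor of blood and of mesenchyme, was at 90.00, 28.3, 33.4 and 58.7 CPM in tumors, against 8.72, 1.38 and 1.6 CPM in brains (log2FC 3.75 ± 0.83, adjusted p = 0.00198). The Hippo pathway factor Tead1 was at 160.2, 360.3, 154 and 294 CPM in tumors, against 106, 85.8 and 78.6 CPM in brains (log2FC 1.42 ± 0.35, adjusted p = 0.00378). The fallers included the homeobox gene Pitx1 (log2FC -4.17 ± 1.32, adjusted p = 0.0166), which is a pituitary gene too. It did not pass without brain 1 and tumors 1 and 2 (adjusted p = 0.155), while 4 factors of the list fell without tumor 3.

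Adhesion, cytoskeletal and other genes of mesenchymal cells rose as well, 15 of 27 of them, while 1 fell (median 2.94). Vim, the intermediate filament vimentin, was at 2974, 6027, 277 and 6690.4 CPM in tumors, against 325, 231 and 200.4 CPM in brains (log2FC 3.99 ± 0.75, adjusted p = 0.000631). The hyaluronan receptor Cd44 was at 1278, 1049.8, 52 and 1414 CPM in tumors, against 21.5, 6.09 and 6.28 CPM in brains (log2FC 6.39 ± 1.0, adjusted p = 0.000153). Lgals1, the lectin galectin-1, was at 2816, 1935, 108 and 1746 CPM in tumors, against 28.7, 14.6 and 11.9 CPM in brains (log2FC 6.49 ± 0.88, adjusted p = 5.38e-05). For these genes tumor 3 was far below the other tumors, though above the brains for Cd44 and Lgals1, and for Vim it lay within the range of the brains. Of the 16 called genes of the list 15 were lowest in tumor 3. Integrin beta 1 (Itgb1, 1012, 1166, 504 and 1074 CPM in tumors, against 271, 142 and 130.5 CPM in brains) and integrin alpha V (Itgav, 559.7, 639, 114 and 974 CPM in tumors, against 50.8, 30.00 and 32.9 CPM in brains) were above the brains in all tumors. The actin regulator Cnn2 was at 381, 358, 152 and 196 CPM in tumors, against 20.8, 12.6 and 9.69 CPM in brains (log2FC 4.24 ± 0.4, adjusted p = 4.47e-06). The faller was Cdh2, the neural and mesenchymal cadherin N-cadherin, with 2.29, 57.8, 1.4 and 10.9 CPM in tumors, against 250.5, 263 and 250.2 CPM in brains (log2FC -3.81 ± 0.93, adjusted p = 0.00365). Acta2, the smooth muscle actin, did not pass (17, 180.4, 14.7 and 4.96 CPM in tumors, against 48.1, 7.03 and 3.6 CPM in brains; adjusted p = 0.343).

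AP-1 and immediate early genes, which respond within minutes to growth factors and stress and also to the handling of tissue, had 15 of 18 members higher and 0 lower (median 3.03). Fosl1, the AP-1 subunit Fra-1, was at 34, 21.7, 0.507 and 25.7 CPM in tumors, against 0.0873, 0.00971 and 0.0159 CPM in brains (log2FC 8.98 ± 1.33, adjusted p = 0.000104). Jun was at 157, 557, 111 and 494 CPM in tumors, against 57.8, 38.4 and 45.9 CPM in brains (log2FC 2.8 ± 0.5, adjusted p = 0.00041). Junb was at 157, 225, 56.6 and 194 CPM in tumors, against 12, 2.14 and 2.36 CPM in brains (log2FC 4.85 ± 0.8, adjusted p = 0.000237). Fos was at 42.9, 81.7, 68.8 and 167 CPM in tumors, against 34.9, 1.45 and 3.17 CPM in brains; brain 1 was the high brain, and the call (adjusted p = 0.0217) was lost without tumor 4 or without brain 2 or 3 (adjusted p = 0.0545 to 0.0785). Egr2 was among the most even members, with 21.2, 25.1, 23.1 and 30.2 CPM in tumors, against 1.54, 0.738 and 1.07 CPM in brains (log2FC 4.48 ± 0.57, adjusted p = 3.16e-05). How much of these levels stems from tissue handling was not tested.

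Proteases of the matrix, their inhibitors and crosslinkers had 15 of 27 members higher and 1 lower (median 3.01), and 8 higher without brain 2 or without brain 3. The urokinase receptor Plaur was at 188, 278, 5.49 and 129 CPM in tumors, against 2.69, 0.592 and 0.7 CPM in brains (log2FC 6.82 ± 1.06, adjusted p = 0.000149). Timp1, an inhibitor of matrix metalloproteases, was at 649.8, 1738, 3.25 and 1343 CPM in tumors, against 8.39, 0.941 and 0.708 CPM in brains (log2FC 8.12 ± 1.71, adjusted p = 0.00139). In both genes tumor 3 again was the lowest of the tumors, and for Timp1 it lay within the range of the brains. Mmp12, the macrophage elastase, was at 13.4, 17, 2.12 and 1.09 CPM in tumors, against 0.0397, 0 and 0.0398 CPM in brains (log2FC 8.17 ± 1.81, adjusted p = 0.00197). Mmp3, stromelysin-1, was at 7.61, 53.5, 3.55 and 0.034 CPM in tumors, against 0.302, 0.00971 and 0.00795 CPM in brains, with tumor 4 within the range of the brains, and its call (adjusted p = 0.0376) was lost without tumor 2 (adjusted p = 0.0928) and without brain 2 or 3 (0.11 and 0.111). The faller was Timp4 (0.439, 0.0195, 0.0597 and 0 CPM in tumors, against 16.8, 7.39 and 8.54 CPM in brains; log2FC -6.55 ± 1.75, adjusted p = 0.00649).

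Many protease promoters are textbook AP-1 targets, so the promoters were searched for the AP-1 element TGANTCA, which reads the same on both strands. It was found in 5 of 15 list genes with a promoter sequence (33.3%), namely Plaur, Mmp3, Mmp12 and 2 further metalloprotease genes, and in 2425 of 27025 mouse genes with promoters of the same length (8.97%). The element was also in 8 of 29 interferon-stimulated genes (27.6%) and in 2 of 7 class II genes (28.6%). Promoters were taken from RefSeq (GRCm38.p6), from 250 bases before to 50 bases after the gene's start. The 250 bases before the start are given for Plaur (chr7:24462233-24462482, plus strand), where the element begins 69 bases before the start, and for Mmp3 (chr9:7445572-7445821, plus strand), where it begins 46 bases before it. The element is in capitals. A match describes the letters only and is not evidence that the element is used.
Plaur: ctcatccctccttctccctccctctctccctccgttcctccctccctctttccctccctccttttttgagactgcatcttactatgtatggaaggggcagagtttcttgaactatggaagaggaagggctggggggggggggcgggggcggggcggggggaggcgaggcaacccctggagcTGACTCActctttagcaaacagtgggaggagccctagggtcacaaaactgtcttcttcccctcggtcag
Mmp3: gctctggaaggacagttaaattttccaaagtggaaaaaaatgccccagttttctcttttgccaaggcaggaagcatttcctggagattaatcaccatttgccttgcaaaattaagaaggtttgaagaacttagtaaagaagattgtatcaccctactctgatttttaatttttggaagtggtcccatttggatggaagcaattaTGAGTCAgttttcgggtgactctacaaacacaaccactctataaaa

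Collagens changed unevenly. Of 25 collagen genes 8 rose and 2 fell, but 1 rose without brain 2, 2 without brain 3 and 4 without tumor 4. Col5a2, which joins fibrils of type I collagen, was at 353, 3315, 2371 and 2570.5 CPM in tumors, against 191, 58.9 and 45 CPM in brains (log2FC 4.45 ± 0.87, adjusted p = 0.000853) and kept its call under every alternative tried. Col1a1, the main fibrillar collagen, was at 265, 466, 1831 and 2612 CPM in tumors, against 1392, 126 and 71.6 CPM in brains (adjusted p = 0.48), where brain 1 alone reached tumor level. Col9a1, a cartilage collagen, fell to 0, 0.0389, 0.119 and 0 CPM in tumors, against 74.2, 3.02 and 2.78 CPM in brains (log2FC -9.21 ± 1.76, adjusted p = 0.000688). Brain 1 was by far the highest brain, and without it the log2FC of Col9a1 was -6.02 (adjusted p = 0.00386). Of 29 matrix glycoproteins and proteoglycans 9 rose and 5 fell, shares not far from those of all genes tested. The fallers included the brain proteoglycan Bcan (0.488, 0.214, 0.537 and 0.136 CPM in tumors, against 214, 96.2 and 139.8 CPM in brains; log2FC -8.79 ± 1.19, adjusted p = 5.29e-05). Ptprz1, a receptor phosphatase of glia, fell too (0.146, 8.89, 0.179 and 6.87 CPM in tumors, against 731, 677 and 796 CPM in brains; log2FC -7.5 ± 1.88, adjusted p = 0.0043). The glycoprotein Tnc fell less (28.3, 79.5, 15.3 and 39.4 CPM in tumors, against 219, 279 and 342 CPM in brains; log2FC -2.78 ± 0.55, adjusted p = 0.000918). Among the risers was fibrillin-1 (Fbn1, 584, 173, 153 and 439 CPM in tumors, against 76.8, 37.3 and 43.6 CPM in brains; log2FC 2.68 ± 0.56, adjusted p = 0.0013). Tgfbi rose too (287, 158, 75.4 and 317 CPM in tumors, against 36.8, 5.33 and 3.17 CPM in brains; log2FC 3.79 ± 0.79, adjusted p = 0.00133). Fibronectin (Fn1) was at 2868, 3043, 55.1 and 1008 CPM in tumors, against 398, 221 and 205 CPM in brains; tumor 3 lay below every brain, and the call (adjusted p = 0.023) was lost without tumor 1 or 2 (adjusted p = 0.0509 and 0.055) and without brain 2 or 3 (0.0774 and 0.0811).

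Of 21 epithelial genes 5 rose and 4 fell, shares near those of all genes tested. The count of risers was 2 without tumor 1 and 1 without brain 2 or 3. The keratins of simple epithelia Krt8 (885, 1.4, 0.984 and 8.91 CPM in tumors, against 2.6, 0.786 and 0.493 CPM in brains) and Krt18 (389.7, 1.54, 0.776 and 24.9 CPM in tumors, against 6.04, 1.48 and 0.724 CPM in brains) were high in tumor 1 and far lower in the others. The calls of both (adjusted p = 0.024 and 0.0477) were lost without tumor 1 (adjusted p = 0.366 and 0.354) and in most other settings. Ocln, a tight junction protein of epithelium and of brain vessels, fell (0.341, 0.37, 0.507 and 0.17 CPM in tumors, against 9.91, 10.4 and 9.82 CPM in brains; log2FC -4.84 ± 0.71, adjusted p = 9.44e-05), and E-cadherin (Cdh1) was at 29.5, 1.36, 15 and 1.67 CPM in tumors, against 12.1, 10.2 and 5.59 CPM in brains (adjusted p = 0.811).

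**Figure D3:**
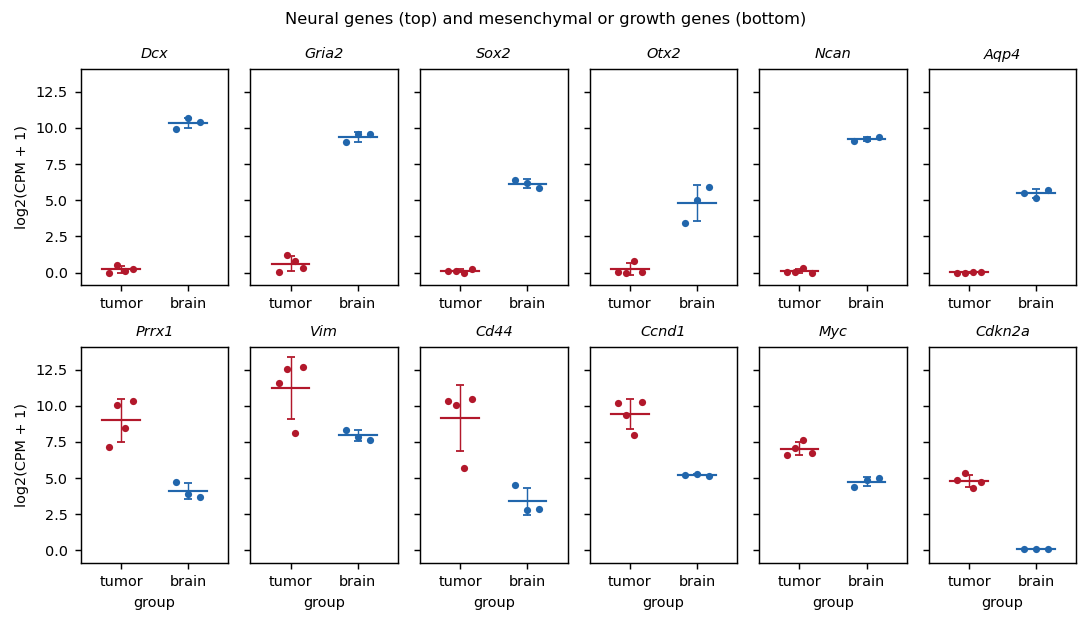
Levels of 12 genes of neural, mesenchymal and growth programs in extracranial tumors (left in each panel, n = 4) and healthy brains (right, n = 3), as log2(CPM + 1); dots are libraries and the bar with whiskers is mean ± SD. The neural genes are near 0 in all tumors, and for Vim and Cd44 1 tumor, tumor 3, lies far below the other tumors.

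Cell cycle genes rose together. All 28 mitosis genes were called higher (median log2FC 1.75), and for each of the 28 all tumors lay above all brains. The cytokinesis protein Anln was at 168, 109, 149.9 and 165 CPM in tumors, against 17, 11 and 8.66 CPM in brains (log2FC 3.6 ± 0.39, adjusted p = 1.03e-05). The proliferation marker Mki67 was at 176, 150.3, 370.1 and 198 CPM in tumors, against 71.6, 79.99 and 42.4 CPM in brains (log2FC 1.79 ± 0.43, adjusted p = 0.0035). Tumor 3 was highest for 26 of the 28. Of 30 replication genes 25 rose and 1 fell (median 1.48). The helicase loader Cdc45 was at 30.8, 28.5, 37.7 and 32.3 CPM in tumors, against 4.33, 6.11 and 4.34 CPM in brains (log2FC 2.71 ± 0.35, adjusted p = 3.8e-05), the helicase subunit Mcm3 at 103, 68.1, 104 and 77.3 CPM in tumors, against 15, 17.9 and 14.3 CPM in brains (log2FC 2.48 ± 0.34, adjusted p = 5.86e-05), and thymidine kinase (Tk1) at 48.8, 38.1, 56.9 and 37.5 CPM in tumors, against 7.78, 6.44 and 5.27 CPM in brains (log2FC 2.8 ± 0.44, adjusted p = 0.000165). The faller was the clamp loader subunit Rfc3 (14.8, 17.2, 16.2 and 17.5 CPM in tumors, against 35.6, 23.1 and 26.2 CPM in brains; log2FC -0.79 ± 0.28, adjusted p = 0.0278), whose call was lost without tumor 1 (adjusted p = 0.0636) and without brain 1 or 3 (0.129 and 0.0513). Tested against a minimum fold of 2, 18 mitosis genes and 15 replication genes were called.

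The drivers of G1 rose too, 9 of 11 of them, with 5 called against a minimum fold of 2. Cyclin D1 (Ccnd1) was at 1165, 648, 254 and 1219 CPM in tumors, against 36.9, 38 and 35.2 CPM in brains (log2FC 4.48 ± 0.57, adjusted p = 3.13e-05). The other D cyclin shown, Ccnd2, was at 188, 1233, 432 and 22.3 CPM in tumors, against 247, 209.99 and 144 CPM in brains (adjusted p = 0.282) and spread above and below the brains. Cdk2 was at 64.3, 54.2, 118 and 61.1 CPM in tumors, against 25.7, 15.1 and 12.9 CPM in brains (log2FC 2.06 ± 0.37, adjusted p = 0.000429). The S-phase factor E2f1 was at 45.2, 51.8, 58.4 and 35 CPM in tumors, against 11.3, 9.34 and 6.49 CPM in brains (log2FC 2.4 ± 0.32, adjusted p = 4.34e-05). These levels were measured beside cell cycle inhibitors, of which 6 of 10 rose and 1 fell. Cdkn2a, which encodes p16Ink4a and p19Arf (chromosome 4, 89274471 to 89294653, GRCm38), was at 28.6, 39.4, 18.8 and 25 CPM in tumors, against 0.0556, 0.0679 and 0.0875 CPM in brains (log2FC 8.59 ± 0.58, adjusted p = 8.84e-07). Its neighbor Cdkn2b was at 7.41, 19.9, 5.97 and 11.7 CPM in tumors, against 1.05, 0.446 and 0.891 CPM in brains (log2FC 3.82 ± 0.57, adjusted p = 0.000108). Cdkn2c, of the same inhibitor family, was at 44, 26.4, 57.3 and 49.6 CPM in tumors, against 8.39, 6.78 and 5 CPM in brains (log2FC 2.72 ± 0.34, adjusted p = 2.8e-05). Cdkn1a, encoding p21, was at 217, 416, 149 and 228 CPM in tumors, against 51.8, 42.3 and 55.5 CPM in brains (log2FC 2.34 ± 0.48, adjusted p = 0.00117). Rb1, the pocket protein that holds E2F factors, fell to 53.4, 27.5, 22.1 and 39.2 CPM in tumors, against 84.3, 97.3 and 83.4 CPM in brains (log2FC -1.31 ± 0.28, adjusted p = 0.00145). The counts of Cdkn2a do not separate its transcripts for p16Ink4a and p19Arf.

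Trp53, which encodes p53, was at 164, 150.3, 237 and 146 CPM in tumors, against 32.4, 44.9 and 37.4 CPM in brains (log2FC 2.19 ± 0.25, adjusted p = 1.56e-05). Of 20 genes known as its targets 14 rose and 2 fell, and 9 rose without brain 1 and tumors 1 and 2. The death receptor Tnfrsf10b was at 68.9, 83, 35.9 and 34.4 CPM in tumors, against 6.28, 2.51 and 2.75 CPM in brains (log2FC 3.85 ± 0.52, adjusted p = 5.06e-05). Ccng1 was at 220.4, 302, 203 and 238 CPM in tumors, against 46.4, 62.9 and 48.3 CPM in brains (log2FC 2.2 ± 0.35, adjusted p = 0.000189). Phlda3, an inhibitor of Akt, was at 89.1, 100.4, 31.8 and 50.2 CPM in tumors, against 13.1, 8.51 and 10.8 CPM in brains (log2FC 2.65 ± 0.49, adjusted p = 0.000547). The fallers were Plk2, which neurons express (28.5, 54.4, 16.6 and 11.3 CPM in tumors, against 88.3, 136 and 165 CPM in brains; log2FC -2.22 ± 0.53, adjusted p = 0.00333), and Perp. Perp was at 0.585, 1.32, 0.567 and 3.19 CPM in tumors, against 16.2, 8.24 and 8.21 CPM in brains (log2FC -2.94 ± 0.93, adjusted p = 0.0171), and its call was lost without brain 1 (adjusted p = 0.0554). The apoptosis gene Bbc3 (Puma) was at 29.4, 42.6, 18.4 and 14.2 CPM in tumors, against 16.8, 20.5 and 19 CPM in brains (adjusted p = 0.347).

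Of the Myc family, Myc rose while its neural relatives fell. Myc was at 97.6, 137, 201 and 105 CPM in tumors, against 20.4, 28.2 and 30.6 CPM in brains (log2FC 2.36 ± 0.38, adjusted p = 0.000197), so each tumor exceeded each brain. Mycn, the form of neural progenitors, was at 0.976, 1.62, 2.63 and 0.51 CPM in tumors, against 29.1, 56.4 and 47.2 CPM in brains (log2FC -4.94 ± 0.7, adjusted p = 7.79e-05). Mycl was at 2, 0.973, 2.48 and 2.79 CPM in tumors, against 96.9, 93.8 and 87.7 CPM in brains (log2FC -5.5 ± 0.58, adjusted p = 8.96e-06). In the wider network of 13 genes these 3 were the calls, and the partner Max was at 96.3, 94.1, 95.9 and 85.9 CPM in tumors, against 73.3, 68.7 and 64.3 CPM in brains (adjusted p = 0.0524). Ribosome biogenesis genes, textbook targets of Myc, had 24 of 35 members higher and 0 lower (median 0.85). Nhp2, a protein of the small nucleolar RNPs, was at 57.3, 50.9, 69.3 and 55.4 CPM in tumors, against 17.5, 17.4 and 20.1 CPM in brains (log2FC 1.67 ± 0.22, adjusted p = 3.79e-05). The nucleolar protein Npm1 was at 677, 691, 1167 and 729 CPM in tumors, against 373, 396 and 381 CPM in brains (log2FC 1.09 ± 0.26, adjusted p = 0.00311). The changes were small, so that 2 of the 35 were called against a minimum fold of 2.

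Receptors and ligands had members that rose and members that fell. Of 27 receptor tyrosine kinases 5 rose and 9 fell, shares not far from those of all genes tested. The risers were Axl, Egfr, Epha2, Fgfr1 and Met. Axl, a receptor of the TAM family, was at 702, 500.1, 220.2 and 825 CPM in tumors, against 63.5, 25.9 and 25.7 CPM in brains (log2FC 3.87 ± 0.5, adjusted p = 3.94e-05). The EGF receptor Egfr was at 115, 258, 562 and 247 CPM in tumors, against 36.1, 33.2 and 40.9 CPM in brains (log2FC 3.01 ± 0.61, adjusted p = 0.00109). The ephrin receptor Epha2 was at 416, 125, 16.3 and 47.1 CPM in tumors, against 3.88, 1.69 and 1.71 CPM in brains (log2FC 5.96 ± 1.19, adjusted p = 0.000951). The groups did not overlap for any of these, nor for the FGF receptor Fgfr1 (704, 629.6, 1812 and 549 CPM in tumors, against 173, 107 and 145 CPM in brains; log2FC 2.7 ± 0.66, adjusted p = 0.00389). The call of Met (3.61, 157, 29.2 and 45.1 CPM in tumors, against 4.61, 18.1 and 9.5 CPM in brains; log2FC 2.45 ± 0.98, adjusted p = 0.0478) was lost without tumor 2 (adjusted p = 0.219) and in most other settings. Fallers included the neuregulin receptor Erbb4 (0.0488, 0.272, 0.119 and 0.068 CPM in tumors, against 61.5, 90.5 and 68.8 CPM in brains; log2FC -9.04 ± 0.73, adjusted p = 1.78e-06). The neurotrophin receptor Ntrk3 fell (0.293, 7.45, 2.33 and 1.73 CPM in tumors, against 155, 209.8 and 231 CPM in brains; log2FC -6.05 ± 0.84, adjusted p = 6.2e-05). Ereg, a ligand of the EGF receptor family, was at 78.3, 289, 0.119 and 212 CPM in tumors, against 0.214, 0.0291 and 0.0557 CPM in brains (log2FC 10.46 ± 2.1, adjusted p = 0.00101), high in each tumor but tumor 3, which lay within the range of the brains. Of 21 ligand genes 5 rose, a share near that of all genes tested, and 1 to 2 did so without any 1 of the brains or without tumor 1 or 4.

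In the hedgehog pathway 5 of 17 genes rose and 3 fell. The ciliary regulator Evc rose (68.2, 62.1, 95.9 and 50.2 CPM in tumors, against 11.9, 9.61 and 7.66 CPM in brains; log2FC 2.83 ± 0.33, adjusted p = 1.64e-05). Its partner Evc2 rose as well (55.6, 70.5, 91.4 and 53.4 CPM in tumors, against 7.57, 9.39 and 10.1 CPM in brains; log2FC 2.91 ± 0.38, adjusted p = 3.79e-05). The target gene Gli1 was at 89.4, 36.7, 116 and 40.1 CPM in tumors, against 30.1, 7.26 and 6.98 CPM in brains (log2FC 2.25 ± 0.83, adjusted p = 0.0349), and its call was lost without tumor 1 or 3 or brain 2 or 3 (adjusted p = 0.0608 to 0.124). The ligand Shh fell (0, 0.0973, 0.119 and 0 CPM in tumors, against 1.91, 2.8 and 1.4 CPM in brains; log2FC -5.04 ± 1.26, adjusted p = 0.00433). The target Hhip fell (0.683, 0.525, 0.388 and 0.102 CPM in tumors, against 10.8, 6.19 and 11.4 CPM in brains; log2FC -4.48 ± 0.95, adjusted p = 0.00147), and the receptor and target Ptch1 was at 201, 32.2, 79.7 and 42.1 CPM in tumors, against 94.9, 81.8 and 58.6 CPM in brains (adjusted p = 0.778). Members moved both ways, and both counts are near the shares of all genes tested (26.1% each way). They are therefore no result about the pathway.

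Of 27 Wnt pathway genes 4 rose and 6 fell, neither a larger share than that of all genes tested, and 2 rose without any 1 of the brains. The receptor Fzd2 rose to 79.7, 91.9, 164 and 62.4 CPM in tumors, against 15, 17 and 10.4 CPM in brains (log2FC 2.82 ± 0.48, adjusted p = 0.000316), and the inhibitor Sfrp1 fell to 6.78, 3.46, 3.67 and 2.55 CPM in tumors, against 92.1, 73.5 and 61.1 CPM in brains (log2FC -4.2 ± 0.64, adjusted p = 0.000124). The ligand Wnt3 had 3 counts in the tumors and 9.62, 10.7 and 12.2 CPM in the brains (ratio 507, interval 173 to 2457). Of 26 genes of the TGF-beta and BMP pathways 12 rose and 2 fell (median 1.5), and 4 fell without tumor 3. The ligand Tgfb1 was at 151, 64, 29.3 and 51 CPM in tumors, against 8.66, 3.62 and 4.41 CPM in brains (log2FC 3.73 ± 0.51, adjusted p = 5.67e-05). The ligand Tgfb3 was at 37.9, 443, 863 and 152 CPM in tumors, against 17.5, 8.72 and 5.31 CPM in brains (log2FC 5.15 ± 1.07, adjusted p = 0.00129). The receptor Tgfbr2 was at 1007, 290.4, 154 and 332 CPM in tumors, against 46.9, 18.6 and 18.8 CPM in brains (log2FC 3.99 ± 0.63, adjusted p = 0.000174), and for all 3 genes each tumor lay above each brain. Against a minimum fold of 2, 7 of these genes were called higher.

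Interferon-stimulated genes rose nearly as a whole. Of 40 such genes 39 rose and 0 fell, with a median log2FC of 4.98, and for 37 all tumors lay above all brains. Their summed level was 4231, 2408, 5458 and 1155 CPM in tumors, against 221, 190.2 and 192 CPM in brains. Irf7, the factor that amplifies the type I interferon response, was at 216, 101, 142 and 15.4 CPM in tumors, against 1.87, 0.98 and 1.17 CPM in brains (log2FC 6.47 ± 0.77, adjusted p = 1.97e-05). The ADP-ribosylation enzyme Parp9 was at 147, 79.2, 155 and 118 CPM in tumors, against 4.65, 3.27 and 3.51 CPM in brains (log2FC 5.04 ± 0.31, adjusted p = 5.53e-07) and thus more even across the tumors. Its relative Parp14 was at 174, 85.3, 145 and 50.7 CPM in tumors, against 3.26, 2.18 and 2.32 CPM in brains (log2FC 5.46 ± 0.41, adjusted p = 1.19e-06). Tumor 4 was the lowest of the tumors for 38 of the 40 genes, and tumor 3 or 1 was the highest for each (24 and 16 genes). The member that did not pass was Cmpk2, at 20.2, 11.8, 24 and 2.75 CPM in tumors, against 24.8, 21.1 and 24.6 CPM in brains (adjusted p = 0.328). Ifng, the gene of interferon gamma, had 0 counts in the tumors and 0.0318, 0.0194 and 0.0159 CPM in the brains, too few to measure at this depth, and its call as lower was lost in most settings, such as without tumor 2 (adjusted p = 0.108).

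The promoters of these genes were searched on either strand for GAAA followed, after 2 bases of any kind, by GAAA again, the core of the element bound by interferon-activated factors. It was found in 14 of the 29 list genes with a promoter sequence (48.3%) and in 1079 of 27025 mouse genes (3.99%). Among MHC class I genes 5 of 14 held it (35.7%), and among class II genes 1 of 7 (14.3%). The first list was made of genes known to respond to interferon, so its high share describes the list and not these tumors. As with the AP-1 element, a match describes the letters only and is not evidence of use. The 250 bases before the start are printed for 3 interferon-stimulated genes that were above the brains in all tumors, Isg15 (112, 114, 166 and 15 CPM in tumors, against 0.707, 0.835 and 1.48 CPM in brains), Ifit1 (95.5, 129, 165 and 29.3 CPM in tumors, against 0.461, 0.32 and 0.851 CPM in brains) and Gbp2 (127, 141, 262 and 41 CPM in tumors, against 2.14, 1.02 and 1.13 CPM in brains), and for B2m of class I. They were chosen with their values known, because the element is near the start. Isg15 lies at chr4:156200819-156201068 (minus strand) with 3 overlapping matches from base -78, Ifit1 at chr19:34640639-34640888 (plus strand) with 2 matches from bases -104 and -85, Gbp2 at chr3:142620413-142620662 (plus strand) with 1 from base -59, and B2m at chr2:122147437-122147686 (plus strand) with 1 from base -139. Capitals mark the matches, which in Ifit1 and Gbp2 are on the other strand.
Isg15: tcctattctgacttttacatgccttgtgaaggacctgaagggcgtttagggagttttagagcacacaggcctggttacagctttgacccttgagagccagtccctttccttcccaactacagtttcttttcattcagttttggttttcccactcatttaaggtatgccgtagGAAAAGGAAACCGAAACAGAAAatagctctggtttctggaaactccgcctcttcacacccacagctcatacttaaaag
Ifit1: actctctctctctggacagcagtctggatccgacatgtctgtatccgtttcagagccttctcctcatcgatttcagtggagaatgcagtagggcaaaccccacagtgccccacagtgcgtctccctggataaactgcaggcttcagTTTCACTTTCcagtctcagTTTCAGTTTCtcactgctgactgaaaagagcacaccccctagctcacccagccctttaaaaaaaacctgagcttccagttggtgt
Gbp2: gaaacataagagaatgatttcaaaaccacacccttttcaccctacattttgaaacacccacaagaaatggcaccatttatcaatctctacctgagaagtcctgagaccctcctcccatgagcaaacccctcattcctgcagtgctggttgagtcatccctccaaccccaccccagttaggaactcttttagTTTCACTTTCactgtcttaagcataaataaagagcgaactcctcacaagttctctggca
B2m: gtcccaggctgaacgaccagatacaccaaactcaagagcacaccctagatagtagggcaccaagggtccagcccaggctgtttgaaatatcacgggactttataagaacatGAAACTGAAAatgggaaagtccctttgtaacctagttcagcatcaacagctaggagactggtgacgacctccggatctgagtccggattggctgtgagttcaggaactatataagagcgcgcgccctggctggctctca

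All 17 genes of MHC class I presentation rose (median 4.22), and for all 17 the tumors lay above the brains. B2m, the light chain of class I molecules, was at 1760.1, 920.03, 1381 and 445 CPM in tumors, against 45.1, 23 and 23.9 CPM in brains (log2FC 5.2 ± 0.45, adjusted p = 2.54e-06). The immunoproteasome subunit Psmb8 was at 102, 41.2, 94.5 and 73.7 CPM in tumors, against 1.52, 0.922 and 1.3 CPM in brains (log2FC 5.96 ± 0.35, adjusted p = 4.42e-07). The peptide transporter Tap1 was at 114, 53, 110.3 and 55.6 CPM in tumors, against 7.87, 4.47 and 7.89 CPM in brains (log2FC 3.62 ± 0.34, adjusted p = 4.09e-06). All 10 class II genes rose as well (median 6.72). The invariant chain Cd74 was at 2256, 730.1, 537 and 189 CPM in tumors, against 1.01, 0.602 and 0.66 CPM in brains (log2FC 10.26 ± 1.68, adjusted p = 0.000226). The class II chain H2-Aa was at 1377, 419, 342 and 120.3 CPM in tumors, against 0.262, 0.369 and 0.262 CPM in brains (log2FC 10.88 ± 1.89, adjusted p = 0.000345). Class II transcripts are made mainly by professional antigen-presenting cells, and each of the 10 genes was highest in tumor 1.

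Myeloid genes moved beside them. Of 28 macrophage and monocyte genes 27 rose and 0 fell (median 5.47), and the list summed to 16563, 8423, 9856 and 4727 CPM in tumors, against 729.9, 331 and 379 CPM in brains. Lyz2, the myeloid lysozyme, was at 4068, 1622, 949 and 530.4 CPM in tumors, against 4.49, 2.59 and 4.33 CPM in brains (log2FC 8.88 ± 1.1, adjusted p = 2.72e-05), with its near-identical copy leaving the count uncertain. Csf1r, the receptor for the main macrophage growth factor, was at 957, 412, 307 and 1102 CPM in tumors, against 32.3, 22.9 and 22.3 CPM in brains (log2FC 4.75 ± 0.58, adjusted p = 2.6e-05). Adgre1, which encodes the macrophage marker F4/80, was at 274, 93.6, 150.2 and 15.5 CPM in tumors, against 4.08, 4.8 and 3.99 CPM in brains (log2FC 4.96 ± 0.75, adjusted p = 0.000124). Tumor 4 held the most Csf1r and the least Adgre1 of the tumors. The scavenger receptor Cd163 did not pass (7.66, 1.3, 1.79 and 0.034 CPM in tumors, against 5.44, 2.95 and 3.32 CPM in brains; adjusted p = 0.757). Whether the rise of interferon and antigen presentation genes came with the myeloid cells was not tested.

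Of 11 genes of microglia, the macrophages of brain, 7 rose and 2 fell (median log2FC 3.29). Olfml3, a secreted protein of microglia and of other cells, rose (408, 294, 313 and 625 CPM in tumors, against 19.5, 10.4 and 8.37 CPM in brains; log2FC 5.01 ± 0.54, adjusted p = 9.83e-06). Sall1, the identity factor of microglia that neural progenitors express too, fell to 0.0976, 0.0389, 0 and 0.034 CPM in tumors, against 24.4, 37.8 and 29.9 CPM in brains (log2FC -9.57 ± 1.09, adjusted p = 1.49e-05). Without brain 1 and tumors 1 and 2 the counts were 2 higher and 1 lower. Of 19 chemokine genes 15 rose and 0 fell (median 6.61). The monocyte attractant Ccl2 was at 173, 239, 31.2 and 225 CPM in tumors, against 0.437, 0.146 and 0.0716 CPM in brains (log2FC 9.56 ± 1.37, adjusted p = 7.92e-05). Cxcl16 was at 368, 139, 91.5 and 64 CPM in tumors, against 1.86, 2.13 and 1.19 CPM in brains (log2FC 6.58 ± 0.75, adjusted p = 1.5e-05). Of 18 complement genes 10 rose and 0 fell. The serine protease C1ra was at 57.1, 191, 63.6 and 193 CPM in tumors, against 2.56, 0.437 and 0.286 CPM in brains (log2FC 6.85 ± 0.98, adjusted p = 8.18e-05). The receptor C5ar1 was at 149, 48.8, 52.7 and 10.3 CPM in tumors, against 0.556, 0.611 and 0.445 CPM in brains (log2FC 6.92 ± 0.92, adjusted p = 4.53e-05).

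Lymphocyte genes rose to a low level. Of 26 T and NK cell genes 19 rose, and the 1 called lower was Ifng, given above. The list summed to 83.4, 20.9, 89.9 and 38.8 CPM in tumors, against 20.3, 47.6 and 30.9 CPM in brains, a sum that genes of brain such as Eomes also enter (10.5, 0.35, 1.55 and 0.374 CPM in tumors, against 8.69, 34.4 and 14.9 CPM in brains; adjusted p = 0.122). Cd3g, of the T cell receptor complex, was at 4.39, 0.681, 4.36 and 1.09 CPM in tumors, against 0.00794, 0.0194 and 0.0159 CPM in brains (log2FC 7.33 ± 1.49, adjusted p = 0.00107). Cd4, which macrophages can express too, was at 6.78, 7.41, 29.5 and 12.7 CPM in tumors, against 0.326, 0.281 and 0.422 CPM in brains (log2FC 5.35 ± 0.65, adjusted p = 2.21e-05). Cd8a was at 4.73, 0.234, 4.12 and 0.17 CPM in tumors, against 0.0476, 0 and 0.0239 CPM in brains (log2FC 6.45 ± 1.63, adjusted p = 0.00469). Cd3g and Cd8a were higher in tumors 1 and 3 than in tumors 2 and 4, which Cd4 was not. Klrk1, the activating receptor of NK cells, had 6, 0.506, 5.61 and 1.05 CPM in the tumors and 0 counts in the brains (at least 396-fold higher). Of 12 checkpoint genes 7 rose and 0 fell. Cd274, which encodes PD-L1, was at 39.3, 35.2, 22.7 and 14.1 CPM in tumors, against 0.85, 2.59 and 1.81 CPM in brains (log2FC 3.99 ± 0.69, adjusted p = 0.000341). Vsir, which encodes VISTA, was at 350.2, 335, 109 and 321 CPM in tumors, against 6.79, 6.29 and 6.02 CPM in brains (log2FC 5.45 ± 0.53, adjusted p = 5.16e-06). The macrophage checkpoint receptor Sirpa was at 852, 259.7, 194 and 492 CPM in tumors, against 129.8, 104 and 119 CPM in brains (log2FC 1.93 ± 0.48, adjusted p = 0.0044). Of 9 B cell genes 3 rose and 2 fell, shares near those of all genes tested.

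**Figure D4:**
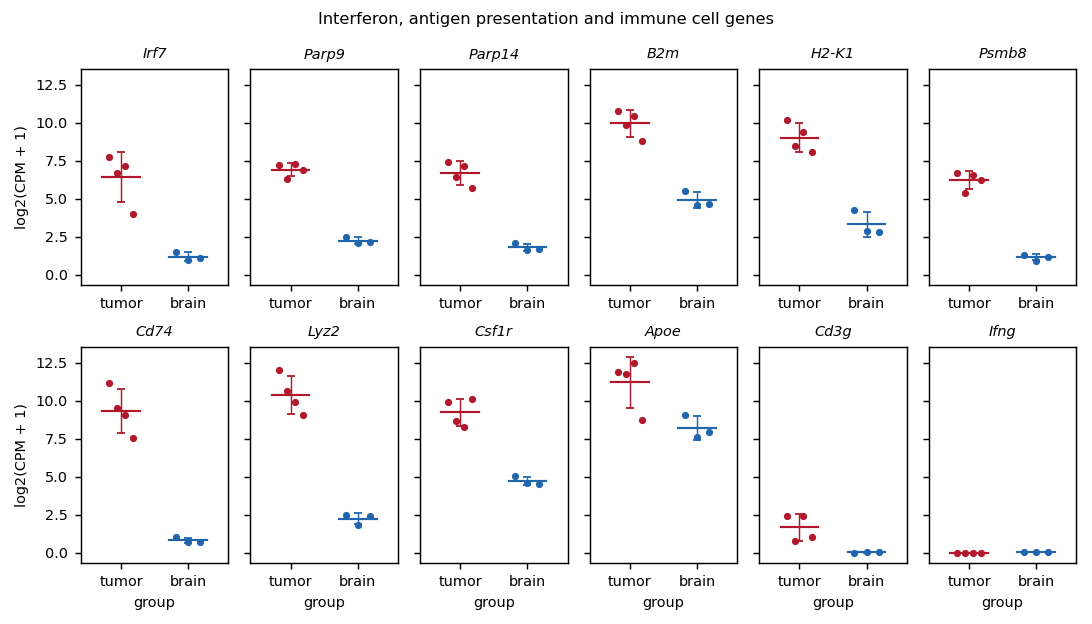
Levels of 12 interferon, antigen presentation, macrophage and T cell genes in extracranial tumors (left in each panel, n = 4) and healthy brains (right, n = 3), as log2(CPM + 1); dots are libraries and the bar with whiskers is mean ± SD. Irf7 was lowest in tumor 4 at 15.4 CPM and still above the brains, and Ifng lies at 0 in all tumors.

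Glycolysis and hypoxia genes had calls in both directions, with 9 of 24 higher and 4 lower, and 4 higher and 1 lower without brain 1 and tumors 1 and 2. Lactate dehydrogenase (Ldha) was at 911, 659.8, 882 and 802 CPM in tumors, against 156, 233 and 207 CPM in brains (log2FC 2.03 ± 0.34, adjusted p = 0.000251), and pyruvate kinase (Pkm) at 1240.1, 1135, 726 and 1254 CPM in tumors, against 369.7, 422 and 396 CPM in brains (log2FC 1.46 ± 0.31, adjusted p = 0.00143). The lactate exporter Slc16a3 was at 62.2, 23.5, 5.46 and 81.6 CPM in tumors, against 1.95, 3.87 and 2.26 CPM in brains (log2FC 4.0 ± 0.96, adjusted p = 0.00334), while the phosphofructokinase Pfkp fell (47.3, 41.3, 9.01 and 65.2 CPM in tumors, against 308, 327 and 428 CPM in brains; log2FC -3.12 ± 0.62, adjusted p = 0.000955). The hypoxia target Vegfa was at 84.4, 145, 88.9 and 101 CPM in tumors, against 71.4, 136 and 95.9 CPM in brains (adjusted p = 0.944).

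Genes of vessels in general had few calls, and those of the blood-brain barrier fell. Of 15 endothelial genes 1 rose and 1 fell, or 3 and 2 without tumor 3, and Cdh5, which defines endothelium, was at 82, 89.3, 22.6 and 25.1 CPM in tumors, against 47.8, 39.6 and 33 CPM in brains (adjusted p = 0.434). Of 12 barrier genes 8 fell and 0 rose, and 5 fell without brain 1 and tumors 1 and 2. The lipid transporter Mfsd2a was at 0.146, 0.448, 2.74 and 0.51 CPM in tumors, against 26.2, 25.5 and 25.6 CPM in brains (log2FC -4.73 ± 0.78, adjusted p = 0.000223), the thyroid hormone transporter Slco1c1 at 0, 0.156, 0.656 and 0.068 CPM in tumors, against 108, 40.5 and 55.9 CPM in brains (log2FC -8.21 ± 1.6, adjusted p = 0.000828) and claudin 5 (Cldn5) at 13, 9.85, 2.57 and 6.9 CPM in tumors, against 45.9, 41 and 42 CPM in brains (log2FC -2.41 ± 0.68, adjusted p = 0.0089). Erythroid genes were lower in tumors, 7 of 8, with Alas2, the first enzyme of heme synthesis in red cells, at 1.22, 0.253, 0.268 and 0.136 CPM in tumors, against 29, 13 and 7.38 CPM in brains (log2FC -5.16 ± 1.19, adjusted p = 0.00256).

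Fetal and imprinted genes were divided. Of 14 imprinted growth genes 2 rose and 3 fell, and of 10 fetal RNA-binding and chromatin genes 3 rose and 2 fell. These shares are near or under those of all genes tested. Peg3, an imprinted zinc finger gene, fell to 11.8, 16.1, 12.4 and 11.5 CPM in tumors, against 673, 419 and 384 CPM in brains (log2FC -5.25 ± 0.55, adjusted p = 8.72e-06), as did Zim1 (1.66, 1.52, 1.85 and 1.16 CPM in tumors, against 101, 70.8 and 59 CPM in brains; log2FC -5.64 ± 0.86, adjusted p = 0.000133). Igf2, the imprinted growth factor, was at 4.83, 102, 457 and 14.7 CPM in tumors, against 911, 435 and 386 CPM in brains (adjusted p = 0.22), with tumor 3 at the level of brain, and it was called lower without that tumor (adjusted p = 0.0355). Lin28b, which blocks let-7 microRNAs, fell to 0.0488, 0.195, 0 and 0 CPM in tumors, against 67.1, 40.4 and 50.7 CPM in brains (log2FC -9.52 ± 1.34, adjusted p = 6.91e-05). Hmga2, a chromatin protein of embryonic mesenchyme, was at 2.78, 383, 1.1 and 168 CPM in tumors, against 2.49, 2.81 and 1.74 CPM in brains (log2FC 5.88 ± 1.55, adjusted p = 0.00595), high in tumors 2 and 4 and near brain level in the other two, and its call was lost in the fit of the compared groups alone (adjusted p = 0.0557).

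In the main fit marker lists of other tissues had 0 to 2 members called higher, in no list a larger share than that of all genes tested. Of 13 cartilage and bone genes 0 rose and 5 fell, but 2 rose and 0 fell without brain 1 and tumors 1 and 2. Of 11 pericyte and fibroblast genes 0 rose and 1 fell, or 0 and 4 without those libraries. Of 9 Schwann and peripheral nerve genes 2 rose, Egr2 and Pmp22. The growth arrest gene Pmp22, which many tissues use, was at 354, 152, 97.4 and 187 CPM in tumors, against 39.2, 16.1 and 16.5 CPM in brains (log2FC 3.05 ± 0.57, adjusted p = 0.000645). Of 4 melanocyte genes 1 rose, namely Mitf, which osteoclasts and macrophages use too (23.2, 7.73, 27 and 83.8 CPM in tumors, against 2.69, 3.66 and 2.7 CPM in brains; log2FC 3.55 ± 0.79, adjusted p = 0.00202), and 2 did without brain 1. Of 6 adipocyte genes 1 rose, the adipogenic factor Pparg (adjusted p = 0.0318), and 4 did without brain 1. Of 8 keratinocyte genes 1 rose, the adaptor protein Sfn (adjusted p = 0.0209). Of 20 skeletal muscle genes 1 rose, the muscle alpha-actinin Actn3 (adjusted p = 0.0375), and 2 did without brain 1. The calls of Pparg, Sfn and Actn3 were lost without brain 2 or 3 (adjusted p = 0.0814 to 0.126), that of Pparg also without tumor 1 (adjusted p = 0.163) and that of Actn3 without tumor 3 (adjusted p = 0.19) or brain 1 (adjusted p = 0.0505). Myogenic factors, hepatocyte, kidney, lung and pituitary genes had 0 called higher, and 1 myogenic factor was called without brain 1. Brain 1 held pituitary and muscle transcripts, and the median log2FC of the skeletal muscle genes was -0.96, against 3.07 without it.

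The 10 nuclear protein-coding genes with the highest level per kilobase of exon in the tumors named 3 kinds of RNA. Translation genes were Eef1a1, with a mean of 2783 CPM per kb in tumors and 1747 in brains, Rplp1 and Rps15. Matrix and structural genes were Mgp, the matrix Gla protein, with 2729 CPM per kb in tumors and 28.6 in brains, Lgals1 with 1829 in tumors and 20.4 in brains, and Actb with 1215 in tumors and 523 in brains. Macrophage and antigen presentation genes were Apoe with 1544 in tumors and 151 in brains, Lyz2 with 1362 in tumors and 2.89 in brains, and B2m with 1310 in tumors and 35.6 in brains. The bone protease Ctsk had 1396 in tumors and 18.1 in brains. The mean of Mgp rested on tumor 2 (166, 9131, 1893 and 1765 CPM) and that of Ctsk on tumor 4 (382, 12.9, 17.8 and 8031 CPM). Without those tumors the calls of Mgp (adjusted p = 0.0248) and Ctsk (0.0233) against brain were lost (adjusted p = 0.0511 and 0.179), as they were without brain 2 or 3.

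The 4 extracranial tumors differed strongly among themselves, and the genes below were taken by their range across the tumors, so they are a description with no test. Tumor 1 stood out for Nptx1, a neuronal pentraxin (3026, 187, 4.27 and 12.6 CPM in the tumors), for Prl2c3, for the keratins Krt8 and Krt18 and for the Hoxa, Hoxb and Hoxd genes given above. The call of Nptx1 against brain was lost without tumor 1 (adjusted p = 0.348). Fgf1, a fibroblast growth factor, was at 1159, 14.7, 26.8 and 1.94 CPM, and its call against brain (adjusted p = 0.0302) was lost without tumor 1 (adjusted p = 0.509). Tumor 2 stood out for Angptl7, a secreted angiopoietin-like protein (96.4, 5386, 11.4 and 7.99 CPM), and for the BMP antagonist Grem1 (197, 812, 0.0895 and 2.82 CPM), which tumor 1 held as well.

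Tumor 3 held Bmp7, a bone morphogenetic protein (0.244, 0.448, 663 and 0.034 CPM), the matrix protein Matn3 (0, 0.895, 954 and 0.034 CPM), the adhesion protein Mpzl2 (0.683, 0.584, 1038 and 0.102 CPM) and Islr, a protein of mesenchymal stromal cells (4.59, 6.93, 1463 and 0.442 CPM). The Wnt target and feedback gene Axin2 was at 1.22, 9.83, 233 and 1.19 CPM in the tumors and 38.4, 51.6 and 68.8 CPM in the brains, and a further feedback gene, Rnf43, at 1.37, 1.13, 92.8 and 1.39 CPM in the tumors and 1.89, 1.76 and 2.04 CPM in the brains. Without tumor 3 Axin2 was called lower than brain (log2FC -3.68, adjusted p = 0.0111) and Rnf43 was not called. The fetal RNA-binding gene Igf2bp1 was at 0.0488, 1.01, 75.1 and 1.8 CPM. Tumor 3 was thus high for these genes and low for Vim, Cd44, Lgals1, Timp1 and Fosl1, while it was the highest for 26 of the 28 mitosis genes.

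Tumor 4 held the G protein-coupled receptor gene Gpr50 at 944 CPM (0.195, 0.798, 0.0597 and 944 CPM over the 4 tumors) and the collagen-cutting protease Ctsk at the 8031 CPM given above. Crabp1, a retinoic acid-binding protein, was at 0.39, 517, 0.268 and 743 CPM, high in tumors 2 and 4 and under brain level (7.59, 9.23 and 7.25 CPM) in tumors 1 and 3. Its call (adjusted p = 0.0485) was lost in most settings, for example without tumor 4 (adjusted p = 0.0915).

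**Figure D5:**
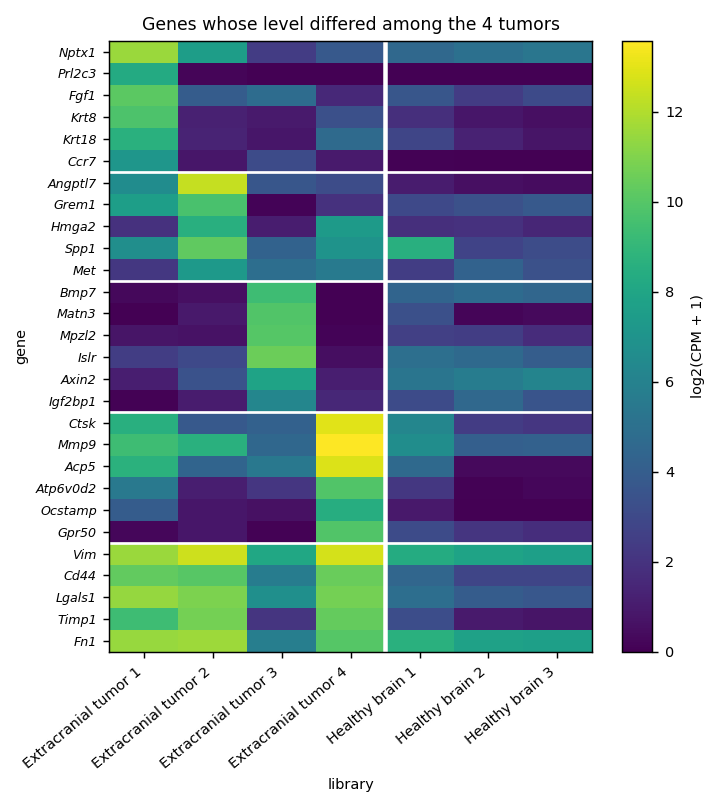
Levels of 28 genes in extracranial tumors 1 to 4 (left) and healthy brains 1 to 3 (right), as log2(CPM + 1), grouped by the tumor in which they are highest, with the mesenchymal genes low in tumor 3 at the bottom. The choice of genes was made from these levels.

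Set against CNS tumors of the Myc subtype (n = 4), few genes were called in the extracranial tumors. With 4 tumors in each group that vary widely, few calls do not show that the groups are alike. Of 21494 genes 4 were called, or 0.0186%, and all 4 were lower in the extracranial tumors, while 3387 had an unadjusted p under 0.05. Pcsk1n, an inhibitor of prohormone processing, was at 0.0976, 0, 0.0298 and 0.034 CPM in the extracranial tumors, against 1.86, 25.5, 25.4 and 4.8 CPM in the Myc tumors (log2FC -8.74 ± 1.19, adjusted p = 0.0328). Ttc39a was at 0.293, 0.895, 0.716 and 0.544 CPM in the extracranial tumors, against 9.46, 5.89, 12.3 and 35.3 CPM in the Myc tumors (log2FC -4.66 ± 0.67, adjusted p = 0.0328). The calls of both genes were lost without extracranial tumor 1, 3 or 4 (adjusted p = 0.0516 to 0.156). The count was unstable: without 1 extracranial or Myc library 0 to 71 genes were called lower and 0 to 23 higher. DESeq2 called 486 genes higher and 746 lower, and limma voom called 0 in either direction.

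Each gene list described here had 0 members called between extracranial and Myc tumors. Hoxc8 was at 76, 16.7, 53.8 and 120.5 CPM in the extracranial tumors and 13.3, 29, 28.1 and 128 CPM in the Myc tumors, and Ccnd1 at 1165, 648, 254 and 1219 CPM in the extracranial tumors and 1200.0, 387, 473 and 875 CPM in the Myc tumors. The median correlation of log2 levels was 0.9 between 2 extracranial tumors and 0.902 between an extracranial and a Myc tumor, a description over genes. It was 0.893 between an extracranial tumor and a graft, 0.774 between an extracranial and an SHH tumor and 0.714 between an extracranial tumor and a brain.

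Set against the flank grafts (n = 3), 563 genes were called higher (2.62%) and 465 lower (2.16%) in the extracranial tumors. Aqp5, a water channel of glands, was at 566, 185, 2.89 and 602 CPM in the extracranial tumors, against 0.0281, 0 and 0 CPM in the grafts. The 1 count in the grafts gives a ratio of 64305 with a 95% interval of 11542 to 2539920, and the call was lost without any 1 of the grafts (adjusted p = 0.0751 to 0.0873). Pcsk1n was lower here too, with 0.0976, 0, 0.0298 and 0.034 CPM in the extracranial tumors and 49.6, 103 and 81.1 CPM in the grafts (log2FC -11.18 ± 1.27, adjusted p = 0.00261), and this call held under each alternative run. The transporter Slc4a5 was at 0.146, 0, 0.268 and 0 CPM in the extracranial tumors, against 217, 228 and 79.5 CPM in the grafts (log2FC -10.79 ± 2.0, adjusted p = 0.0182), a call lost without graft 1 or 2 (adjusted p = 0.0555 and 0.0567). Of the lists, T and NK cell genes had 7 of 26 called lower than in grafts and 0 higher, and granzyme B (Gzmb) was at 3.12, 0.584, 1.31 and 0.51 CPM in the extracranial tumors and 31.1, 52.7 and 52 CPM in the grafts (log2FC -5.05 ± 1.11, adjusted p = 0.0297), a call lost without any 1 of the grafts (adjusted p = 0.0779 to 0.0873). Wnt pathway genes had 7 of 27 higher and 0 lower. The counts against grafts depended on each library and on the fit: without 1 of the grafts 10 to 27 genes were called higher and 44 to 123 lower, with the compared groups alone 39 and 71, and by DESeq2 2229 and 1504. Both comparisons share the extracranial libraries with the comparison against brain, so their results are not independent of it.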

How the data were processed

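Per the labels' protocols, RNA came from a miRNeasy extraction with a DNase step and was sequenced as TruSeq Stranded mRNA libraries, which select poly(A) RNA. Per the submitters' processing notes the aligner was STAR 2.5.3a and the build mm10. The authors deposited raw counts per gene, with no normalization. The counting tool and its strand setting are not given in the sources used here. For that reason antisense and overlapping genes, and near-identical copies (H2, Lyz, Prl2c, Ang, Klra, Ifit and granzyme genes), are uncertain.

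Of 50600 genes 21494 passed edgeR's filter at a minimum count of 10 and held 99.96% of the counts. The 17 libraries were fitted together, each group with its own mean, by edgeR 4.0.16 in R 4.3.3, with TMM scaling and the robust quasi-likelihood test, with Benjamini-Hochberg adjustment over all genes tested and a threshold of 0.05. Unless another setting is named, every adjusted p and log2 fold change above is from this fit. The standard error is the size of the log2 fold change over the square root of the test's F statistic. For genes near 0 counts it is approximate. CPM are TMM-scaled. Alternatives were DESeq2 1.42.0, limma 3.58.1 (voom), other scaling, filters and fits, and each library left out. The steps were also run on simulated data in which few genes were changed, unlike this comparison. That run does not show how reliable the calls here are. No 2 replicates agreed within sampling noise. The design text calls the tumors separate and the brains biological replicates, and nothing else in the labels says that they came from separate animals. The p-values speak of the spread between these libraries alone, and how much of it is technical cannot be told. Where a group had 0 counts, a bound over a floor of 3 counts per group replaces the fold; with 1 to 3 counts a ratio with its exact 95% Poisson interval does. Both cover counting error only.

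The comparison, gene lists and genes were chosen with earlier results of these data known. Genes were named by rule: the 12 largest changes each way, the members of each list with the 5 smallest and 2 largest adjusted p and each called member against its list's direction, the 10 with the largest range across tumors, the 5 largest changes against Myc tumors and grafts, the 10 highest per kilobase and a few key genes; the genes printed were picked from these with values known, and Isg15, Ifit1 and Gbp2 were added likewise. A few genes are not reported here. Library numbers were not used to pair the groups in the main fit. Gene names were matched by Ensembl ID (45737 of 50600 with version), and figures were drawn with matplotlib 3.10.9.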

Additional observations from a re-analysis of the deposited data

Results flagged for a closer look

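A gene named above is given here where 1 of the 4 extracranial tumors lay far from the other 3: its gap to the nearest of them, over the whole range on the log2(CPM + 1) scale, was above the 95% value of Dixon's test, which chance passes in about 1 in 20 groups. Of 224 named genes examined 26 are given. Some of the named genes were chosen for their wide range across these tumors, so the chance rate does not apply to the number given. Tumor 3 was the tumor apart for 17 of the 26 genes. It was the high one for Bmp7 (663 CPM), Matn3 (954 CPM), Mpzl2 (1038 CPM), Rnf43 (92.8 CPM), Otx1 (62.1 CPM) and Npm1 (1167 CPM). It was the low one for Cd44 (52 CPM), Lgals1 (108 CPM), Itgb1 (504 CPM), Timp1 (3.25 CPM), Fosl1 (0.507 CPM), Ccl2 (31.2 CPM), Sfn (6.21 CPM) and Vsir (109 CPM). At levels near the floor it was the high one for the brain factors Otx2 (0.776 CPM) and Barhl1 (0.597 CPM), and for Rfx4 (0.0298 CPM) it held the single count of the 4 tumors.

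Tumor 1 was apart for Prl2c3 (311 CPM), Hand2 (78.7 CPM), Timp4 (0.439 CPM) and Alas2 (1.22 CPM), where it was high, and for Col5a2 (353 CPM), where it was low. Tumor 2 was the low one for Hoxc9 (1.15 CPM). Tumor 4 was the high one for Gpr50 (944 CPM) and the low one for Isg15 (15 CPM). For Slc17a6 (0.034 CPM) it held the single count of the 4 tumors, and 1 count among zeros always passes this test.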

How the results depend on the processing

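Against brain the counts of higher and lower genes stayed within 1.5 times of 5610 and 5620 in every setting but 1: tested against a minimum fold of 2, 3050 were higher and 3633 lower. On leaving out a library they ran over 4172 to 5458 higher and 4736 to 5689 lower. Against Myc tumors 10 genes were lower with RLE size factors, 486 were higher and 746 lower with DESeq2, 0 were lower with limma voom, with the compared groups only and with a replicate block, and 2 were lower at a minimum fold of 2. Without extracranial tumors 1 and 2 together 55 were higher and 44 lower, and without 1 library 0 to 23 and 0 to 71. Against grafts 218 were higher and 296 lower with every gene that had a count, 2229 and 1504 with DESeq2, 1230 and 1620 with limma voom, 39 and 71 with the compared groups only, 161 and 269 with a replicate block, and 25 and 36 at a minimum fold of 2. Without 1 library they ran over 10 to 1116 and 44 to 854. The cause of these shifts was not tested, beside the fewer samples and stricter null that some settings impose by construction.

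Deviations of same-numbered extracranial tumors and brains correlated at 0.06, -0.009 and 0.007. Such values cannot tell whether the replicate number pairs samples, and the main fit did not use it. With the number as a block 5007 genes were higher and 5428 lower against brain. Genes carried by 1 tumor turned their direction against brain. Limma voom gave a log2 fold change of -3.43 for Axin2 and -5.04 for Bmp7. Without brain 1 and tumors 1 and 2 Grem1 was at -2.89 and Nptx1 at -2.05. On leaving out 1 library Axin2 ran from -3.68 to 0.60, Bmp7 from -6.48 to 3.28, Calcr from -2.66 to 2.30, Gpr50 from -3.61 to 6.36, Igf2bp1 from -3.82 to 1.09, Mpzl2 from -3.10 to 6.45, Otx1 from -5.74 to 0.66 and Rnf43 from -0.55 to 4.05. The lowest value came without tumor 4 for Gpr50 and without tumor 3 for the other 7. The extracranial libraries hold fewer counts than the brains, which limits genes near the floor.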

Other observations

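Genes of osteoclasts, the bone-resorbing cells formed by fusion of macrophage precursors, were looked up after the level of Ctsk in tumor 4 had been seen, so they are a description with no test. Of 10 such genes 9 were highest in tumor 4 among the 4 extracranial tumors. The acid phosphatase Acp5 was at 414, 20.01, 42.9 and 7396 CPM in the tumors and 24.4, 0.291 and 0.27 CPM in the brains. The gelatinase Mmp9 was at 659, 394, 22.5 and 12277 CPM in the tumors and 100.5, 16.2 and 17.5 CPM in the brains. The proton pump subunit Atp6v0d2 was at 43.3, 1.19, 3.4 and 945 CPM and the fusion protein Ocstamp at 14.3, 0.798, 0.507 and 358 CPM in the tumors. The exception was Calcr, the calcitonin receptor, at 0.927, 1.4, 158 and 4.86 CPM in the tumors with tumor 3 the highest.

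Developmental transcription factors, likewise chosen after their values were seen, differed from tumor to tumor. Hand2, of heart and branchial arches, was at 78.7, 0.175, 0.209 and 0.306 CPM in the tumors and highest in tumor 1. Shox2, of limb mesenchyme, was at 1.71, 445, 3.52 and 88.8 CPM and highest in tumor 2. Alx1, of head mesenchyme, was at 0.0976, 15.4, 535 and 64.7 CPM, and the osteoblast factor Sp7 at 2.34, 1.3, 176 and 16 CPM, both highest in tumor 3. Tbx18 was at 5.51, 10.6, 0.626 and 123 CPM and highest in tumor 4. In the brains Alx1 was at 0.699, 0.291 and 0.143 CPM and Shox2 at 9.43, 32.6 and 74.9 CPM.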
